A study of Mus musculus with 12 samples.

Results

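The 10 genes described here are Klhl34, Nlrc3, Nuak1, Haus8, Uck2, Cpxm2 and Mical2, which were higher after pressure overload, and Ano10, Armh4 and Nmb, which were lower. They were taken by symbol from the 24775 genes of the deposited table because earlier results of these data showed their change after transverse aortic constriction (TAC) as called, or as largely kept, in hearts given the PRODH virus. The load differences, within each virus and between the viruses, therefore chose the genes and are given as a description. All 10 passed the filter on low values that left 21173 genes to test.

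The samples were heart tissue of C57BL/6 mice, with 3 libraries per group. The PRODH TAC and PRODH sham groups had received AAV9-PRODH, an adeno-associated virus meant to raise proline dehydrogenase, the mitochondrial enzyme that opens proline breakdown, in the heart. The vector TAC and vector sham groups had received the AAV9-Vector control. Surgery, a constriction of the aortic arch or a sham operation, came 3 weeks after injection and tissue was taken 4 weeks after it. Every group thus carries an AAV9, and the PRODH groups are labelled as overexpressing mice and the others as wild type. Neither the promoter that drives the viral gene nor the age of the mice is stated in the labels. Beyond numbering the libraries of a group, the labels do not say that they come from separate animals, so p-values measure the spread between these libraries.

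Libraries held 10132059 to 15228036 reads. Prodh, the gene supplied by the virus, had 1101.6 ± 191.2 normalized reads in PRODH TAC (SD, n = 3, as for all groups), 192.2 ± 46.5 in vector TAC, 844.6 ± 306.0 in PRODH sham and 335.0 ± 43.9 in vector sham. The summed level of 12 ventricular myocyte markers was 718084.5 to 802970.7 normalized reads in PRODH TAC, below the 837946.9 to 925148.9 in PRODH sham. In vector TAC it was 715741.7 in replicate 1, 537064.7 in replicate 2 and 545487.6 in replicate 3. The vector sham range, 710479.2 to 868881.1, took in replicate 1 of vector TAC and lay above replicates 2 and 3. The part of these myocyte markers in the load differences of the described genes was not tested. Vector TAC replicate 1 stood apart from replicates 2 and 3 of its group: its 12 macrophage markers summed to 25849.8 normalized reads against 12549.1 and 12435.4, its 6 red cell markers to 120166.2 against 11246.0 and 17761.6, and its 12 activated fibroblast markers to 12289.0 against 65465.5 and 47585.3. PRODH sham replicate 2 also had a high red cell sum, at 138464.1 against 30809.8 and 51919.7 in its group. In PRODH TAC the same 12 activated fibroblast markers summed to between 4828.4 and 5807.6. In RNA of heart tissue, fewer cells of a type and less RNA per cell cannot be told apart.

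A heart that pumps against a narrowed aorta thickens its muscle cells, turns on stretch-responsive and fetal genes, and lays down matrix through its fibroblasts. The 10 genes belong to no single pathway. Mical2, an enzyme that oxidizes actin, and Nuak1, a kinase of the AMPK family that acts on myosin phosphatase, bear on the actin cytoskeleton. Klhl34 belongs to the kelch-like family, many of whose members bring proteins to cullin-3 ubiquitin ligases. Uck2 phosphorylates uridine and cytidine and so starts the salvage of pyrimidines. Nlrc3 is an intracellular receptor-like protein known to dampen innate immune signalling, Cpxm2 a secreted carboxypeptidase-like protein, and Haus8 a subunit of augmin, the complex that branches new microtubules from existing ones. Ano10 encodes a lipid scramblase of the endoplasmic reticulum, Nmb the bombesin-like peptide neuromedin B, and Armh4 a membrane protein.

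Promoter sequence was looked at as a description. With load 7 of the genes were higher and 3 lower, and that change chose them. RefSeq (GRCm38.p6) gave 1 promoter for each of the 10. The 250 bases before the start are shown for the 3 genes whose TAC change was called under both viruses (Klhl34, Uck2 and Ano10) and for Nlrc3, which differed most. They lie at chrX:157818185-157818434 (plus strand), chr1:167285128-167285377 (minus), chr9:122294424-122294673 (minus) and chr16:3976633-3976882 (minus). Each is written 5′ to 3′ in the direction of the gene, and capitals mark letters that match a searched motif on either strand.
Klhl34: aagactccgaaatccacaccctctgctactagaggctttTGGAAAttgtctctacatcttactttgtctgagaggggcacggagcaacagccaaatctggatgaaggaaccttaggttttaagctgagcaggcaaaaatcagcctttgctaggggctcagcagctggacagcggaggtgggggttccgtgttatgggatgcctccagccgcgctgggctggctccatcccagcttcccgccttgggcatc
Uck2: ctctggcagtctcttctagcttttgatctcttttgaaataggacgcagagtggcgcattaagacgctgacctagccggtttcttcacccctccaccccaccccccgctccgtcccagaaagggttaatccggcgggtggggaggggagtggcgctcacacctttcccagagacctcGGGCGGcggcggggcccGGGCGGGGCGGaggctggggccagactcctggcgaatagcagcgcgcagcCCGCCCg
Ano10: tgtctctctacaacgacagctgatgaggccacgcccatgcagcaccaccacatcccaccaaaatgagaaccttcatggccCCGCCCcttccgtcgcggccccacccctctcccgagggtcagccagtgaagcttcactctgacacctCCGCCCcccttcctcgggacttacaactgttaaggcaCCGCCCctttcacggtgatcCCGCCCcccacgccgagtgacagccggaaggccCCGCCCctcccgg
Nlrc3: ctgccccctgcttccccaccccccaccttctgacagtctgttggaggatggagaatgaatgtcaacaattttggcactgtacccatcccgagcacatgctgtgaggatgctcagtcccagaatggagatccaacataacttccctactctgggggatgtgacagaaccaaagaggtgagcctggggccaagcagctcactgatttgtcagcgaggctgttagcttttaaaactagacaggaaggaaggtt

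The capitals are the NFAT core TGGAAA in Klhl34 and the GC box GGGCGG, or its reverse complement, in Uck2 (4 matches, of which a neighbouring pair shares a base) and Ano10 (5 matches). Nlrc3 has none. Over all 10 promoters the GC box was in 6, against 32.7% of the 32851 promoter windows of the same length. The NFAT core was in 2 (18.6% of all windows), the MCAT element CATTCC in 2 (12.6%), CCAAT in 2 (33.8%) and the E-box CACGTG in 1 (6.02%). AGATAA (9.99%), TGANTCA (6.75%), TGACGTCA (1.55%), the CArG box (1.47%) and the MEF2 site (0.508%) were in 0 of the 10. GC content ran from 52.0% in Nlrc3 to 79.2% in Nuak1, against a median of 52.4% over all windows, and the number of CpG pairs from 2 in Nlrc3 to 38 in Nuak1, against a median of 6. The windows therefore range from a CpG-poor one at Nlrc3 to CpG-rich ones at Nuak1 and Haus8 (34 CpG pairs), and none of the 10 motifs was found in every gene. A match in such a window is a description of its letters.

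All 10 genes were expressed well above the filter, with 16 reads as the lowest count in any library (Nlrc3) and 3563 as the highest (Mical2). Divided by exon length, the mean level over the 12 libraries was highest for Uck2, at 222 normalized reads per kilobase, followed by Nuak1 (196), Cpxm2 (156), Ano10 (113), Nmb (96.9), Mical2 (93.9), Klhl34 (72.6), Haus8 (70.9), Armh4 (22.1) and Nlrc3 (15.7). Armh4 and Nlrc3 lie in the middle of all tested genes on this per-length scale (percentiles 52.8 and 47.8), the other 8 between percentiles 72.2 and 88.3.

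**Figure D1:**
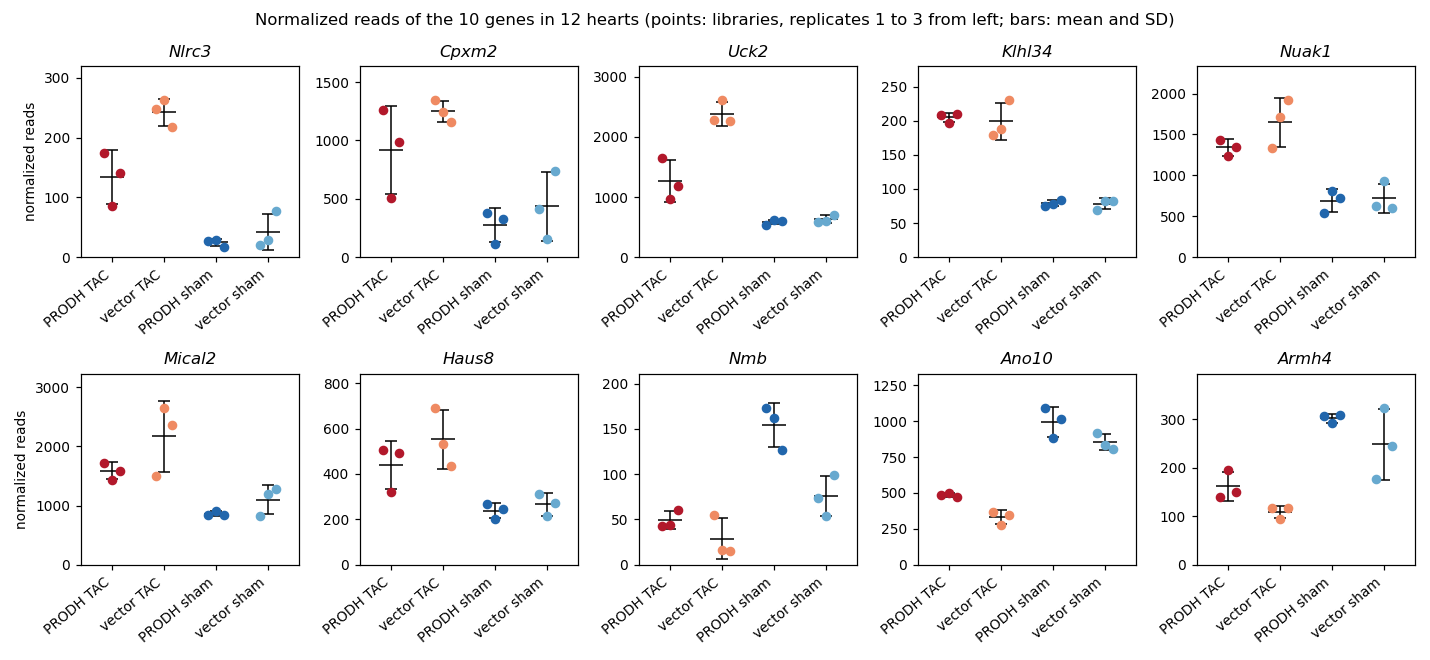
Normalized reads (linear axis from 0) of each gene in PRODH TAC, vector TAC, PRODH sham and vector sham hearts; points are libraries, the bar and whiskers the mean and SD of 3. Klhl34 shows a step of similar size under both viruses, while Uck2 and Nlrc3 in PRODH TAC lie between vector TAC and the sham groups.

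Klhl34 was higher after TAC by close to the same amount under both viruses. Its normalized reads were 208.5, 196.6 and 209.7 in PRODH TAC, 179.6, 188.1 and 230.1 in vector TAC, 75.1, 78.4 and 84.2 in PRODH sham and 68.9, 82.4 and 83.0 in vector sham. The ranges of the TAC groups overlap each other, as do those of the sham groups, and every TAC library lies above every sham library. The difference between TAC and sham on the log2(value + 1) scale was 1.36 ± 0.16 (standard error, limma) in PRODH mice and 1.34 ± 0.16 in vector mice. Within-group spread was small, with a coefficient of variation of 3.54% in PRODH TAC, 13.6% in vector TAC, 5.84% in PRODH sham and 10.2% in vector sham.

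Mical2 and Nuak1, which act on actin and myosin, were higher in every TAC library than in every sham library. Mical2 had 1727.3, 1439.5 and 1587.4 normalized reads in PRODH TAC, 1503.8, 2648.5 and 2356.3 in vector TAC, 838.6, 908.4 and 835.8 in PRODH sham and 816.5, 1201.6 and 1285.1 in vector sham. Nuak1 had 1437.4, 1235.3 and 1351.4 in PRODH TAC, 1328.6, 1707.5 and 1917.2 in vector TAC, 537.1, 810.2 and 725.3 in PRODH sham and 628.3, 926.3 and 600.0 in vector sham. In both genes vector TAC replicate 1 was the lowest library of its group and the PRODH TAC values overlap the vector TAC values. The load difference of Mical2 was 0.88 ± 0.20 in PRODH mice and 0.96 ± 0.20 in vector mice, and that of Nuak1 was 0.97 ± 0.19 in PRODH mice and 1.21 ± 0.19 in vector mice.

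Uck2 kept the smallest share of its vector response. It had 1648.8, 961.9 and 1191.1 normalized reads in PRODH TAC, 2285.8, 2609.1 and 2257.6 in vector TAC, 539.3, 615.9 and 595.1 in PRODH sham and 580.0, 599.4 and 704.0 in vector sham. PRODH TAC stood clear of vector TAC below and of both sham groups above, and the sham groups overlapped. The load difference was 1.08 ± 0.16 in PRODH mice and 1.93 ± 0.16 in vector mice, so that 56.3% ± 9.7 (standard error by error propagation) of the vector difference was found in PRODH mice.

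Nlrc3 had the largest fold of the 10. Its normalized reads were 174.7, 85.7 and 140.5 in PRODH TAC, 247.7, 262.4 and 217.8 in vector TAC, 27.3, 28.7 and 17.5 in PRODH sham and 19.5, 29.0 and 76.7 in vector sham. The TAC groups did not overlap, and vector sham replicate 3 stood at more than its group's other libraries and below the lowest PRODH TAC library. The load difference was 2.37 ± 0.39 in PRODH mice, a 5.17-fold change, and 2.74 ± 0.39 in vector mice, a 6.69-fold change. Nlrc3 is known from lymphocytes, and the summed level of 12 T and B cell markers was 201.5 to 237.1 normalized reads in PRODH TAC, 148.6 to 350.3 in vector TAC, 109.2 to 305.7 in PRODH sham and 200.5 to 246.3 in vector sham. These marker ranges overlap between all groups, and the part of such cells in the Nlrc3 difference was not tested.

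Cpxm2 varied widely between libraries of a group. Cpxm2 had 1258.7, 509.5 and 984.7 normalized reads in PRODH TAC, 1343.1, 1245.8 and 1156.9 in vector TAC, 381.2, 109.3 and 328.2 in PRODH sham and 414.4, 151.2 and 741.9 in vector sham. Its coefficient of variation was 41.3% in PRODH TAC, 7.46% in vector TAC, 52.8% in PRODH sham and 67.9% in vector sham, and the lowest PRODH TAC library lies below the highest vector sham library. The load difference was 1.84 ± 0.51 in PRODH mice and 1.79 ± 0.51 in vector mice. Activated fibroblast markers, given above for the TAC groups, summed to between 3481.3 and 3998.4 normalized reads in PRODH sham and between 4534.2 and 5287.2 in vector sham, and their part in the Cpxm2 difference was not tested. Haus8 had 505.3, 319.5 and 494.0 normalized reads in PRODH TAC, 690.5, 532.2 and 432.9 in vector TAC, 267.4, 202.0 and 247.2 in PRODH sham and 311.6, 213.7 and 273.2 in vector sham. Its load difference was 0.86 ± 0.21 in PRODH mice and 1.04 ± 0.21 in vector mice. The exons of Haus8 overlap those of Myo9b on the opposite strand in GENCODE M21. The labels do not say whether counting used strand, so reads of the 2 genes may not be separated. Myo9b differed by 0.47 ± 0.16 under both viruses (0.469 in PRODH and 0.468 in vector mice).

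Ano10 was lower after TAC under both viruses. It had 485.4, 502.9 and 469.9 normalized reads in PRODH TAC, 369.3, 275.8 and 345.9 in vector TAC, 1091.2, 885.2 and 1011.9 in PRODH sham and 919.4, 835.8 and 808.1 in vector sham. PRODH TAC lay above vector TAC without overlap and below both sham groups, with a coefficient of variation from 3.4% in PRODH TAC to 14.7% in vector TAC. The load difference was -1.03 ± 0.13 in PRODH mice and -1.38 ± 0.13 in vector mice.

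Armh4 had 140.0, 195.5 and 149.3 normalized reads in PRODH TAC, 117.1, 95.2 and 116.4 in vector TAC, 306.1, 291.4 and 308.5 in PRODH sham and 176.9, 323.3 and 244.8 in vector sham. The highest PRODH TAC library, replicate 2, lies above the lowest vector sham library, while the groups within each virus do not overlap. Its load difference was -0.91 ± 0.20 in PRODH mice and -1.14 ± 0.20 in vector mice.

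Nmb was the one gene of the 10 whose vector groups overlapped. It had 42.7, 43.9 and 60.4 normalized reads in PRODH TAC, 54.7, 16.4 and 15.1 in vector TAC, 173.0, 162.3 and 126.9 in PRODH sham and 74.0, 54.3 and 98.8 in vector sham. Vector TAC replicate 1, the library that differs in macrophage, red cell and fibroblast markers, was the high one of its group; the part of those markers in Nmb was not tested. The load difference was -1.64 ± 0.39 in PRODH mice and -1.58 ± 0.39 in vector mice, and the vector value was -2.16 without vector TAC replicate 1. Nmb overlaps exons of Sec11a on the same strand in GENCODE M21, so its counts depend on how shared reads were assigned. Sec11a, at 371.1 ± 30.7 normalized reads in PRODH TAC, 461 ± 25 in vector TAC, 480.4 ± 13.4 in PRODH sham and 503.2 ± 123.7 in vector sham, differed by -0.37 ± 0.15 in PRODH mice and -0.10 ± 0.15 in vector mice.

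In vector mice all 10 load differences were called at a limma adjusted p under 0.05, by a rule that calls 7.77% of all tested genes (3.72% higher, as 7 of the 10 were, and 4.05% lower, as 3 were). In PRODH mice 3 of the 10 were called, where the same fit called 0.0236% of all tested genes. These 5 genes were Klhl34, Ano10 and Uck2 and, from outside the 10, Nppb and Ankrd1, which encode a natriuretic peptide and a stretch-responsive muscle protein. Since these calls chose the genes, nothing is read from the counts. Just inside the threshold in PRODH mice stood Uck2 (limma adjusted p = 0.0362) and just outside it Nlrc3 (limma adjusted p = 0.0574). The calls in PRODH mice depend on the spread that all 4 groups share: with only the PRODH groups in the fit 1023 genes and all 10 described genes were called, and without vector TAC replicate 1 the counts were 296 genes and 9 of the 10. Without PRODH TAC replicate 1 or 3, or PRODH sham replicate 1 or 3, 0 of all tested genes were called, and so 0 of the 10. In vector mice the call of Cpxm2 was lost when any 1 of 7 libraries was left out: PRODH TAC 1 or 3, vector TAC 2 or 3, PRODH sham 3, and vector sham 1 or 2 (limma adjusted p from 0.052 to 0.192, with a load difference of 1.17 without vector sham 2). With only the vector groups in the fit, 7 of the 10 were called, without Cpxm2 (limma adjusted p = 0.0695), Mical2 (0.0736) and Nmb (0.118). The call of Nmb was also lost when vector TAC 2 or 3, or vector sham 1 or 3, was left out (limma adjusted p from 0.0544 to 0.107).

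The TAC and sham libraries did not overlap in any of the 10 genes in PRODH mice and in 9 of the 10 in vector mice. Over all tested genes this held for 21.8% in PRODH mice and 20.2% in vector mice. PRODH TAC and vector TAC did not overlap in 4 genes (Nlrc3, Uck2, Ano10 and Armh4), against 20.6% of all genes, and PRODH sham and vector sham in 1 (Nmb), against 11.2%.

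**Figure D2:**
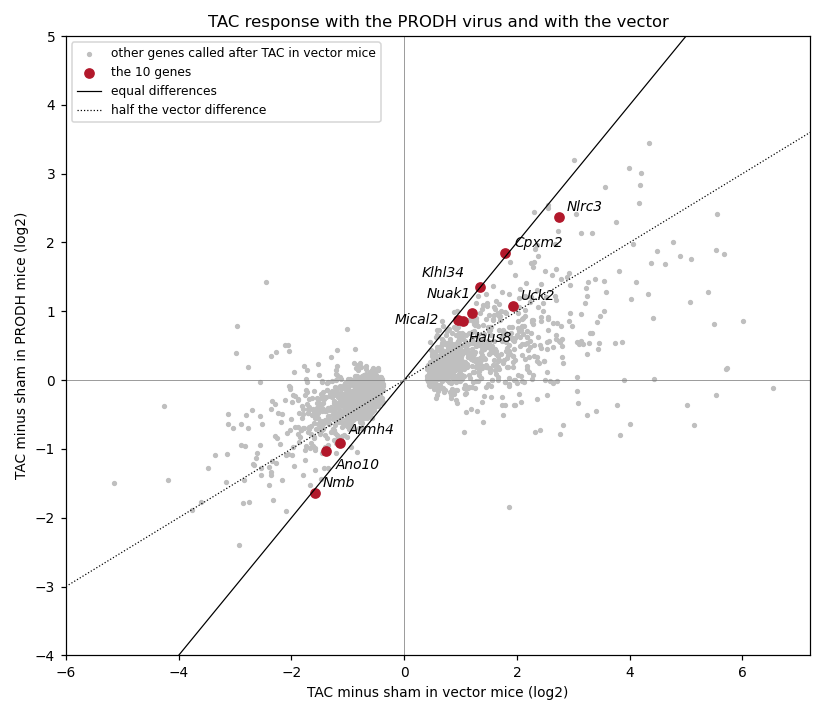
Difference between TAC and sham (log2) in PRODH mice on the vertical axis and in vector mice on the horizontal axis; grey points are other genes called after TAC in vector mice, red points the 10 genes, the solid line equality and the dotted line 50% of the vector difference. The 10 genes lie from near the dotted line (Uck2) to the line of equality (Klhl34, Cpxm2, Nmb).

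The share of the vector load difference that was found in PRODH mice ran from 56.3% in Uck2 through 74.7% in Ano10, 80.3% in Armh4, 80.4% in Nuak1, 82.4% in Haus8, 86.5% in Nlrc3 and 90.9% in Mical2 to 101.8% in Klhl34, 102.7% in Cpxm2 and 103.7% in Nmb. Its standard error was between 9.7 and 40.4 percentage points, widest in Cpxm2 and Nmb (35.5), so the order among most neighbours is not resolved. The shares of Nmb and Cpxm2 also depend on single libraries. The vector difference was -2.16 for Nmb without vector TAC replicate 1 and 1.17 for Cpxm2 without vector sham replicate 2. Among all 787 genes called higher after TAC in vector mice the median share was 29.8% (quartiles 13% and 46.7%), and among the 858 called lower it was 34.2% (16.1% and 50.8%). Of the 787, 22.6% kept at least 50%, and of the 858, 26.1% did. Those genes were picked by their vector difference alone and the 10 by both differences, so the gap between them follows from the choice. The difference between the load responses was itself called in 0 of the 10 (limma, 1 of the 10 at an unadjusted p under 0.05, Uck2 at -0.84 ± 0.23), where 0.104% of all genes were called.

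What the choice did not use is the difference between the viruses averaged over TAC and sham hearts. With 3 libraries in every group its estimate does not depend on either load difference. The spread estimate is shared, however. A gene chosen by a call can have a small spread, which would lower p here too. In this contrast Uck2 was lower with the PRODH virus by 0.52 on the log2 scale (-0.52 ± 0.12, limma adjusted p = 0.042) and Ano10 higher (0.39 ± 0.09, limma adjusted p = 0.049). They were 2 of the 10, where 1.36% of all tested genes were called. That share covers all tested genes, while the 10 were chosen for a called or kept load change. Nothing is therefore read from the count. Both sit near the threshold. Ano10 was no longer called without any single library other than vector TAC replicate 1 and PRODH sham replicate 2 (limma adjusted p from 0.0682 to 0.147), and Uck2 without any single one other than vector TAC replicate 1 and PRODH TAC replicate 1 (from 0.0527 to 0.124).

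The other 8 did not pass. Nmb was 1.01 ± 0.28 higher with the PRODH virus (95% interval 0.43 to 1.60, limma adjusted p = 0.0836) and passed without vector TAC replicate 1, at 1.30 (limma adjusted p = 0.000292). Mical2 differed by -0.37 ± 0.14 (-0.67 to -0.08, limma adjusted p = 0.214) and passed without the same library, at -0.49 (limma adjusted p = 0.00478), as did Armh4, with 0.44 ± 0.14 (0.13 to 0.74, limma adjusted p = 0.148) over all libraries and 0.46 without it (limma adjusted p = 0.0404). Without that library limma called 2640 of all tested genes in this contrast, against 288 with all libraries. The groups are then also unequal, so the average is no longer independent of the vector load difference. Nothing is therefore read from these passes. Nlrc3 (-0.73 ± 0.28, interval -1.32 to -0.13), Cpxm2 (-0.56 ± 0.36, -1.32 to 0.20), Haus8 (-0.24 ± 0.15, -0.56 to 0.08) and Nuak1 (-0.17 ± 0.13, -0.45 to 0.12) had limma adjusted p between 0.229 and 0.621. For Klhl34 the difference was 0.04 ± 0.11, with an interval from -0.20 to 0.28 (limma adjusted p = 0.929).

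**Figure D3:**
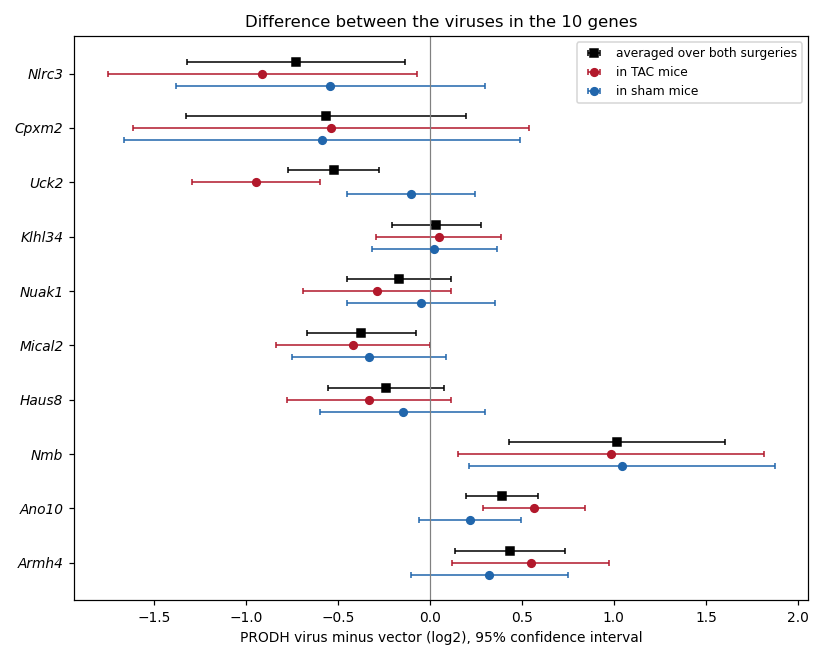
Difference between the PRODH virus and the vector (log2, horizontal axis) with its 95% interval from limma for each gene, averaged over both surgeries (black squares), in TAC mice (red) and in sham mice (blue). In the average the whole intervals of Uck2, Nlrc3 and Mical2 lie left of 0 and those of Nmb, Ano10 and Armh4 right of it. Cpxm2, Haus8 and Nuak1 are centred left of 0 and Klhl34 near 0, with intervals that take in 0. The intervals are not adjusted for the number of genes tested, and in the average only Uck2 and Ano10 were called.

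The parts of that average share libraries with the load differences and are given as values. In TAC hearts limma called 2 of the 10, Uck2 and Ano10, and 3.92% of all genes. Uck2 differed there by -0.94 ± 0.16, Nlrc3 by -0.91 ± 0.39, Nmb by 0.99 ± 0.39, Ano10 by 0.57 ± 0.13 and Klhl34 by 0.05 ± 0.16. In sham hearts the same genes differed by -0.10 ± 0.16, -0.54 ± 0.39, 1.04 ± 0.39, 0.22 ± 0.13 and 0.02 ± 0.16. For Uck2 the value in TAC hearts was the larger, with the difference between them not called. For Nmb the value in TAC hearts was 1.56 without vector TAC replicate 1 (limma adjusted p = 0.00117), a call that the full set of libraries did not give. Without that library limma called 2754 of all tested genes in TAC hearts, against 831 with all libraries. The Nlrc3 value in sham hearts was 0.01 without vector sham replicate 3, the high library of its group, and -0.95 without vector sham replicate 1. Limma called 0 genes in sham hearts (871 at an unadjusted p under 0.05, and 7 with DESeq2), so the sham values carry no call. Prodh, the gene supplied by the virus, was itself not called there, at 1.263 ± 0.245 (limma adjusted p = 0.616). The lack of calls in sham hearts therefore does not show that the virus changed no gene.

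Within PRODH TAC the 7 genes that were higher shared their lowest library. Replicate 2 was the lowest of that group in all 7, for Klhl34 by a small gap (196.6 against 208.5 and 209.7). Among the 787 genes called higher after TAC in vector mice, replicate 2 was the lowest in 41.2%. Of the 3 genes that were lower, replicate 2 was the highest in 2, against 52.1% of the 858 called lower. In vector TAC replicate 1 was the lowest in 3 of the 7 and replicate 3 in 4. In the 3 genes that were lower, vector TAC replicate 1 was the highest in all 3. No share over other genes was computed for these vector TAC counts, so nothing is read from them.

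Genes with the most similar pattern over the 12 libraries were sought among 13943 others with a mean of at least 10, by Pearson's r of log2(value + 1). These r values carry the split between TAC and sham and, for many pairs, also differences between libraries within a group. They come without a test. Uck2 was most like Ankrd1 and Col9a2 (r = 0.98 each), Klhl34 like Ankrd23, a relative of Ankrd1 in muscle, and Dhx37 (0.95 each), and Nlrc3 like Gm11382 and Lman1l (0.98 each). Nuak1 was most like Scml4 and Tlr4 (0.97 each), Mical2 like Traf3 and Dipk2a (0.98 each), and Haus8 and Cpxm2 shared Ugp2, an enzyme of UDP-glucose synthesis, as the closest gene (0.97 and 0.95). Among the genes that were lower, Ano10 was most like Mrm1 and Nfyc (0.97 each), Armh4 like Hdlbp and Ppip5k2 (0.97 each) and Nmb like Atp5d (0.98) and As3mt (0.97). With group means removed r fell to 0.39 for Klhl34 with Ankrd23 and 0.74 for Uck2 with Ankrd1, and was 0.95 for Nmb with Atp5d, 0.92 for Mical2 with Traf3 and 0.90 for Haus8 with Ugp2. The partners were picked by r over the same 12 libraries, which favours a high r here too. For the plain mean of the 10 standardized profiles the closest genes were Cdv3 (0.99), Prnp and Acta1 (0.98 each) and Aqp8 and Tbx15 (0.97 each), and with the sign of the 3 lower genes turned they were Ankrd1, E230013L22Rik, Hbegf and Dok7 (0.97 each) and Gm11382 (0.96).

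**Figure D4:**
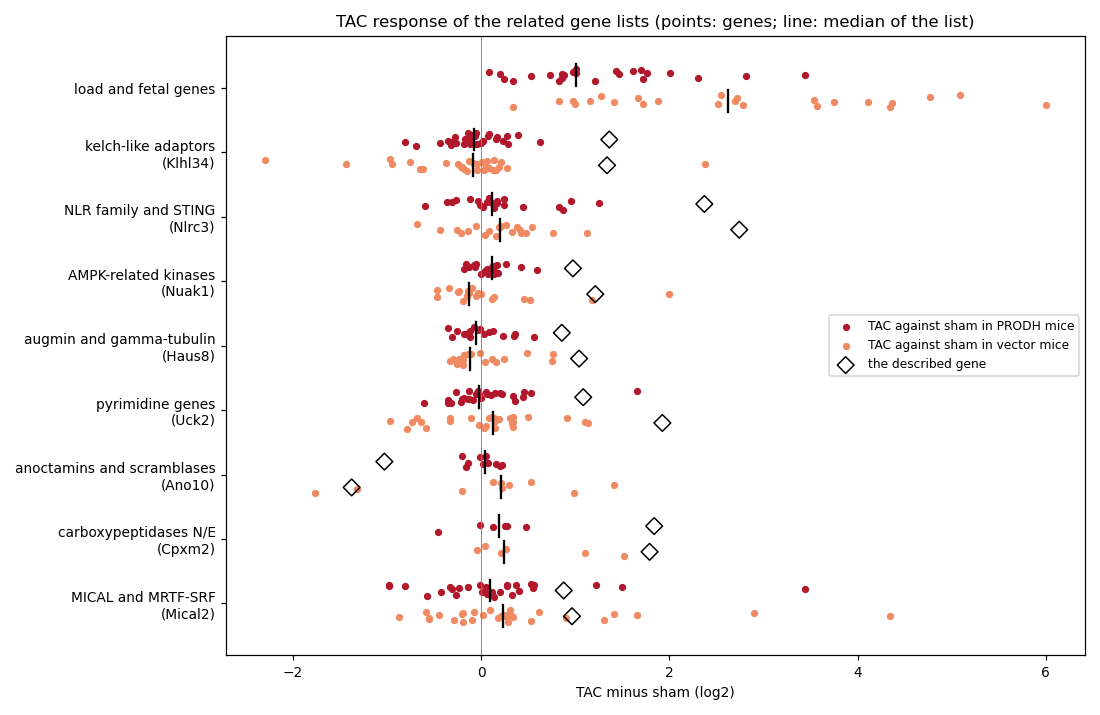
Difference between TAC and sham (log2, horizontal axis) of the genes in lists related to the 10, in PRODH mice (red, upper row of each list) and vector mice (orange, lower row); black lines are list medians and diamonds the named gene. The load and fetal genes have a median of 1.00 in PRODH and 2.62 in vector mice. The 8 lists drawn around a named gene have medians between -0.13 and 0.24. All lists were chosen with earlier results of these data known. The list around Nmb, with 1 tested gene, is not drawn.

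Of the genes related to the 10 by family or pathway, most were not called after TAC, apart from the load and fetal genes in vector mice. Of 24 load and fetal genes, limma called 2 higher in PRODH mice and 22 higher in vector mice. Their medians were 1.00 and 2.62, against 0.00 and 0.02 over all genes. This list, like the others, was chosen with earlier results of these data known, so its counts are a description. Over all tested genes limma called 3.72% higher and 4.05% lower in vector mice, and 0.0236% in PRODH mice. These are the shares to set beside every list count after TAC. Nppb differed by 1.46 ± 0.18 in PRODH mice and 2.78 ± 0.18 in vector mice, Ankrd1 by 1.61 ± 0.24 and 2.69 ± 0.24 and Cilp, a matrix protein, by 2.00 ± 0.36 and 4.76 ± 0.36. In the 9 lists built around the 10 genes, 0 genes were called in PRODH mice, where the fit of all groups called few genes at all.

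In the list around Mical2, of MICAL enzymes, methionine sulfoxide reductases and genes of the MRTF-SRF route that actin oxidation feeds, 0 of 30 were called in PRODH mice and 6 were higher in vector mice. Ccn2, connective tissue growth factor, differed by 1.49 ± 0.28 in PRODH mice and 2.90 ± 0.28 in vector mice, Acta1, skeletal actin, by 3.44 ± 0.64 and 4.34 ± 0.64, and Fhl1, a LIM protein, by 0.53 ± 0.23 and 1.41 ± 0.23. Of 29 kelch-like genes and cullin-3 partners, in vector mice 1 was higher, as Klhl34 was, and 7 lower, with a list median of -0.08. Klhl33 had 281.8 ± 14.3 normalized reads in PRODH TAC, 84.4 ± 23.6 in vector TAC, 365.4 ± 79.8 in PRODH sham and 416.4 ± 101.7 in vector sham. Its load difference was -0.35 ± 0.22 in PRODH mice and -2.29 ± 0.22 in vector mice, that of Klhl23 -0.17 ± 0.15 and -0.94 ± 0.15, and that of Klhl29 0.63 ± 0.47 and 2.38 ± 0.47.

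Of 28 other genes of pyrimidine salvage and synthesis, 1 was higher and 3 lower in vector mice. Upp1, uridine phosphorylase, which splits the uridine that Uck2 would phosphorylate, differed by 0.33 ± 0.21 in PRODH mice and 1.13 ± 0.21 in vector mice, Nt5e, an ectonucleotidase, by -0.13 ± 0.17 and -0.79 ± 0.17, and Dpyd, which degrades pyrimidines, by -0.61 ± 0.26 and -0.97 ± 0.26. Of 21 genes of the NLR family and the STING route 1 was called in vector mice: Sting1, the adaptor that Nlrc3 is known to restrain, differed by 0.12 ± 0.20 in PRODH mice and 0.76 ± 0.20 in vector mice. Nlrc4 (0.02 ± 0.44 and 1.13 ± 0.44) and Pycard (-0.31 ± 0.22 and -0.44 ± 0.22) were not called.

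Of 10 tested anoctamins and scramblases 1 was higher and 2 lower in vector mice. Ano4 differed by -0.21 ± 0.25 in PRODH mice and -1.32 ± 0.25 in vector mice, Ano5 by 0.20 ± 0.38 and -1.77 ± 0.38, and Plscr1 by 0.02 ± 0.15 and 0.53 ± 0.15. Of 6 carboxypeptidases of the N/E group 2 were higher in vector mice. Aebp1 differed by 0.12 ± 0.25 in PRODH mice and 1.52 ± 0.25 in vector mice, Cpxm1, the closest relative of Cpxm2, by -0.46 ± 0.27 and 1.10 ± 0.27, and Cpm by 0.47 ± 0.27 and 0.21 ± 0.27.

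None of 21 AMPK-related kinases and partners and none of 18 genes of augmin and the gamma-tubulin complexes were called in vector mice. Prkaa2, an AMPK catalytic subunit, differed by 0.13 ± 0.17 in PRODH mice and -0.47 ± 0.17 in vector mice, Brsk1 by -0.18 ± 0.44 and 1.18 ± 0.44, and Sik1 by 0.59 ± 0.17 and 0.45 ± 0.17. Tubgcp2 differed by -0.18 ± 0.12 and -0.26 ± 0.12, Tubg2 by 0.56 ± 0.34 and 0.76 ± 0.34 and Tpx2 by 0.35 ± 0.38 and 0.75 ± 0.38. Of the receptors and peptides around Nmb, 1 was tested: Nmbr, its receptor, averaged 0.0 normalized reads in PRODH TAC, 1.2 ± 1.6 in vector TAC, 0.7 ± 0.6 in PRODH sham and 2.8 ± 3.1 in vector sham.

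Averaged over both surgeries, the contrast not used in the choice, limma called 2 of the 29 kelch-like genes higher and 2 lower with the PRODH virus, 0 genes in the other 8 lists built around the 10, and 5 of the 24 load and fetal genes lower. In the same contrast 1.36% of all tested genes were called, and the list counts are a description. Klhl33 (0.79 ± 0.16) and Klhl30 (0.50) were the higher and Klhl29 (-1.56 ± 0.34) and Klhl2 (-0.51) the lower kelch-like genes. The 5 genes called from the load and fetal list were Cilp (-2.17), Thbs4 (-2.60), Ltbp2 (-2.18), Nppa (-1.94) and Postn (-1.91). Of these, Cilp, Thbs4 and Postn are also among the activated fibroblast markers. Nppb (-0.40 ± 0.13, limma adjusted p = 0.143) and Ankrd1 (-0.40 ± 0.17, limma adjusted p = 0.29) were not called.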

How the data were processed

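TRIzol extraction, DNase I digestion and a SMARTER mRNA-Seq kit gave the libraries, per the labels' protocols. Aligner, counter, strand setting, build and annotation: not given in the sources used here. What was deposited is 1 table, which holds a signal per gene: counts that the authors divided by 1 factor per library, as the values themselves show, since 100% are whole multiples of the column's smallest step within 0.01. The reads so recovered were used for edgeR and DESeq2.

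The fit was limma 3.58.1 with a trended prior (R 4.3.3) on log2(value + 1), a scale that understates changes of low genes, over genes with at least 1 in at least 3 libraries, with 1 mean per group, all 12 libraries and Benjamini-Hochberg adjustment over all 21173 genes. It was also run on simulated data in which every gene had the same spread beyond counting noise and no library stood apart. Vector TAC replicate 1 does stand apart here, so that run does not cover this case. A permutation of 3 against 3 libraries cannot go below p = 0.1, so p-values rest on the model.

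The 10 genes, the 10 pathway lists and the 12 marker lists were chosen with earlier results of these data known. From each pathway list the 3 genes with the smallest p after TAC in vector mice are named; Klhl30, Klhl2, Thbs4, Ltbp2, Nppa and Postn were named after their values were seen. Exon lengths and overlaps come from GENCODE M21, promoters from RefSeq. Every pair of replicates differed beyond counting noise (chi-square per degree of freedom at least 4.37). Alternatives were pseudocount 0.1, no filter, a mean of at least 10, TMM and quantile scaling, edgeR 4.0.16, DESeq2 1.42.0, fitting the compared groups alone, a replicate block, and leaving out libraries. Columns that match no sample numbered 0.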

Additional observations from a re-analysis of the deposited data

How the results depend on the processing

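Of 1300 values recomputed for the 10 genes, 1170 kept their direction and their side of the threshold, 62 lost a call, 37 gained one and 31 changed sign. Of the 31, 0 were called, 0 were TAC differences within a virus and 23 were differences between the TAC responses. After TAC in vector mice 1645 genes were called, against 652 with only the compared groups fitted (7 of the 10), 9 of the 10 with DESeq2 (Cpxm2 lost, adjusted p = 0.0829), and 3602 genes with vector TAC 1 and PRODH sham 2 both left out. After TAC in PRODH mice 5 genes and 3 of the 10 were called. The count was 11 genes with edgeR, 126 and 9 of the 10 with DESeq2, 1023 and all 10 with only the compared groups, and 318 and 8 without those 2 libraries. For the averaged virus contrast, with 288 genes and 2 of the 10, 1 of the 10 was called with pseudocount 0.1, no filter, TMM, quantile scaling or edgeR; DESeq2 called 930 genes, and leaving out the 2 libraries gave 2719 genes and 4 of the 10. For the virus in TAC mice (831 genes, 2 of the 10), DESeq2 called 1509 genes, the compared groups alone 383 and 1 of the 10, and the fit without the 2 libraries 2887 and 4 of the 10. In sham mice (0 genes) DESeq2 called 7 and the fit without the 2 libraries 2. For the difference between the TAC responses (22 genes), the counts were 7 with pseudocount 0.1, 8 with a mean of at least 10, 197 with DESeq2 and 274 without the 2 libraries. The causes were not tested.

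Leaving out 1 library at a time gave 8 to 10 of the 10 and 821 to 3455 genes after TAC in vector mice, and 0 to 9 of the 10 and 0 to 296 genes after TAC in PRODH mice. It gave 0 to 5 of the 10 and 11 to 2640 genes for the averaged virus contrast, 1 to 4 of the 10 and 247 to 2754 genes for the virus in TAC mice, 0 of the 10 and 0 to 3 genes in sham mice, and 0 of the 10 and 0 to 412 genes for the difference between the responses.

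Without vector TAC 1 and PRODH sham 2, Klhl34 was -0.02252 for the virus in TAC mice, and the difference between the TAC responses was -0.05353 for Klhl34, -0.4594 for Cpxm2 and 0.5637 for Nmb. With 1 library left out, Klhl34 ran from -0.00744 to 0.08972 for the averaged virus contrast, from -0.02252 to 0.1555 for the virus in TAC mice and from -0.0627 to 0.06995 in sham mice. In sham mice Nlrc3 ran from -0.9511 to 0.008717 and Nuak1 from -0.1739 to 0.1488. The difference between the TAC responses ran from -0.04649 to 0.1315 for Klhl34, -0.9199 to 0.0399 for Nlrc3, -0.3449 to 0.03119 for Haus8, -0.5134 to 0.6711 for Cpxm2, -0.3759 to 0.5203 for Nmb and -0.332 to 0.1137 for Mical2.

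Groups share replicate numbers. Deviations of same-numbered libraries from their group means correlated at -0.05 to 0.14, against -0.21 to 0.14 for different numbers. With 3 libraries per group this cannot decide whether the numbers pair the samples, and the labels do not say. With the replicate number as a block, the counts were 10 of the 10 and 1737 genes after TAC in vector mice, 2 of the 10 and 5 genes after TAC in PRODH mice (Uck2 at a limma adjusted p of 0.0514), 2 of the 10 and 326 genes for the averaged contrast, 2 of the 10 and 914 genes for the virus in TAC mice, 0 genes in sham mice and 35 genes for the difference between the responses.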
